A study of Mus musculus with 6 samples.

Results

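The genes described here encode the hormones of the pituitary gland and 3 proteins of the cells that make them: Gh, Prl, Pomc, Cga, Tshb, Lhb, Fshb, Pou1f1, Ghrhr and Pitx1. They were taken by symbol from the probe sets annotated to a single gene, which gave 14 probe sets for 9 of the 10 genes, out of 45037 probe sets in all. For Pou1f1 no probe set was matched, and its signal was not analysed here. The genes were chosen by values measured on these arrays, since the signal of pituitary hormones was known to vary between the 6 brains. Their values are therefore given as a description.

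The arrays were hybridised with RNA from whole brains of 2-month-old male mice. Of these, 3 brains carried 1 disrupted copy of the periphilin gene (heterozygous knockout), 3 came from wild-type C57BL/6 littermates, and each brain had its own Affymetrix array. The brains were frozen after dissection, and the labels do not say whether the pituitary was removed. The labels do not place the disruption within the gene, Pphln1, so its probe sets are no firm check of the genotype: 1434822_at measured 319.8 ± 44.5 (SD, n = 3) in heterozygous and 299.7 ± 12.6 in wild-type brains, and 1435766_at 37.2 ± 6.91 and 52.28 ± 9.50. Values are deposited intensities on a linear scale, and differences are on the log2(intensity + 16) scale, which understates changes of dim signals. A probe set counts as dim if its mean on this log2 scale is at or below that of an intensity of 18.4. Of the 14 probe sets, 10 lay above that limit, from 6 genes. Across the tested probe sets the arrays correlated at 0.978 to 0.985.

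The pituitary hangs below the hypothalamus and has an anterior, an intermediate and a posterior lobe. In the anterior lobe, somatotrophs make growth hormone, lactotrophs prolactin, thyrotrophs thyroid-stimulating hormone, gonadotrophs luteinising and follicle-stimulating hormone, and corticotrophs pro-opiomelanocortin. Intermediate-lobe melanotrophs also make pro-opiomelanocortin, as do some neurons of the hypothalamic arcuate nucleus, whereas the posterior lobe holds axon endings and pituicytes. Pou1f1, a POU homeodomain factor, drives the somatotroph, lactotroph and thyrotroph lineages and activates Gh, Prl and Tshb, while Pitx1 is a homeodomain factor active across the anterior lobe.

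Promoter sequences are shown for Prl, Pomc and Cga because their signals divided the brains differently, as the values below show. Each run is the 250 bases before the RefSeq gene start of GRCm38.p6, 5′ to 3′, from chr13:27057320-27057569, plus strand, chr12:3954695-3954944, plus strand and chr4:34893529-34893778, plus strand, with matches to the Pou1f1 motif in capitals.
Prl: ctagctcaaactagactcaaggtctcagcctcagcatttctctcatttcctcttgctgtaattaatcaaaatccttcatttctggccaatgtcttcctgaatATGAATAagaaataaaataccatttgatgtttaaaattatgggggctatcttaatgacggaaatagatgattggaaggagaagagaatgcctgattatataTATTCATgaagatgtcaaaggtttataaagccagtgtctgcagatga
Pomc: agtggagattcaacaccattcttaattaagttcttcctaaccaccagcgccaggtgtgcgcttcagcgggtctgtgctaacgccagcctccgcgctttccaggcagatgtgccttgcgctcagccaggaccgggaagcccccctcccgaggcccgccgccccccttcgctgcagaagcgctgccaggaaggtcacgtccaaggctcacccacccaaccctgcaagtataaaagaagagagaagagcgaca
Cga: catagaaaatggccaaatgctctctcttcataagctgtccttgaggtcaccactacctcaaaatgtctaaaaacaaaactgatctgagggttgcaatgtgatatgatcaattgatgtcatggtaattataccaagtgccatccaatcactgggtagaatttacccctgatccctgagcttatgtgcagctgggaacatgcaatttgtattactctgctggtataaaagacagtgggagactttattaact

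The Pou1f1 motif searched was ATGNATA on both strands, which 7.92% of 32851 promoter windows of this length hold. Prl held 2 matches, starting 148 and 47 bases before the gene start, and Pomc and Cga held none of these letters. Promoter entries were found for 7 of the 10 genes. Among them, 1 Pou1f1 entry held a match 57 bases before the start, and Tshb, Lhb and Fshb held none. The letters TAATCC, searched as a Pitx1 motif on both strands, are held by 6.25% of the windows and by none of the 8 entries of these genes. These are letter matches and not measured binding.

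Gh, the growth hormone gene of somatotrophs, covered a log2 range of 6.99 over the brains. At its brightest probe set, 1456595_x_at, heterozygous brains 1, 2 and 3 measured 46.7, 43.5 and 2696.3, and wild-type brains 1, 2 and 3 measured 7567.0, 310.9 and 158.3. Wild type 1 was highest and heterozygous 3 second, wild types 2 and 3 were intermediate, and heterozygous 1 and 2 lowest. The steps down this order were 1.48, 3.05, 0.91, 1.48 and 0.08 on the log2 scale, so heterozygous 1 and 2 stood level while the other steps exceeded the median range of 0.46 that a tested probe set covered over all 6 brains. All 4 Gh probe sets placed wild type 1, heterozygous 3, wild type 2 and wild type 3 in that order above the remaining brains. The log2 distance from heterozygous 3 to wild type 1 was 1.48 to 1.99 over the 4 probe sets. On wild type 1, only 0.0532% of all probe sets were brighter than 1456595_x_at, against 44.3% on heterozygous 1.

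Prl, the prolactin gene of lactotrophs, followed the same division of brains. Its probe set 1429287_a_at measured 76.7, 38.8 and 3729.5 in heterozygous brains 1 to 3, and 8306.3, 415.4 and 456.1 in wild-type brains 1 to 3. Wild type 1 and heterozygous 3 were again far above the rest, wild types 2 and 3 stood together with a step of 0.13 between them, and heterozygous 1 and 2 were lowest. The gap from heterozygous 3 down to wild type 3 was 2.99. Since the RNA came from bulk tissue, fewer cells of a type and less RNA per cell cannot be told apart for any of these genes.

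**Figure D1:**
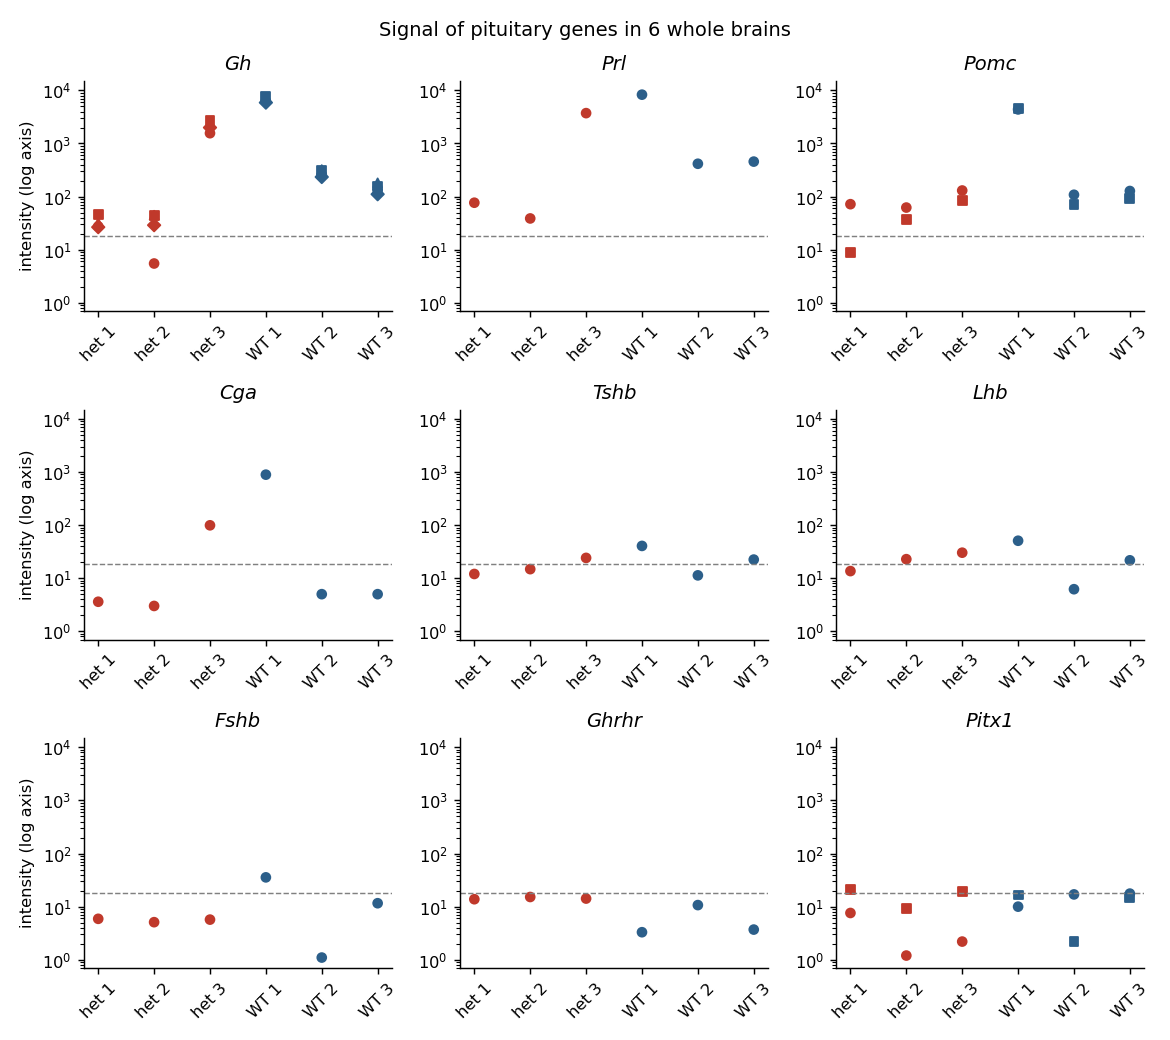
Intensity of each probe set on a log axis for the 9 measured genes, by brain (red: heterozygous, blue: wild type; marker shapes: different probe sets of a gene; dashed line: dim limit of 18.4). Gh and Prl are high in wild type 1 and heterozygous 3, whereas Pomc is high in wild type 1 and reaches 130.3 at most in the other brains.

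Pomc, which encodes the precursor of corticotropin and melanocyte-stimulating hormone, split from this pattern. At 1433800_a_at, heterozygous brains 1 to 3 measured 72.0, 62.2 and 130.3, and wild-type brains 1 to 3 measured 4380.1, 108.3 and 127.5. Only wild type 1 was high, and heterozygous 3, the brain with the second-highest Gh and Prl, stood 0.03 above wild type 3. At the second probe set, 1455858_x_at, wild type 1 measured 4480.2 and heterozygous 3 measured 85.1, below wild type 3 at 90.8. The signal of wild type 1 was 33.6 and 52.7 times that of heterozygous 3 by the 2 Pomc probe sets. The corresponding ratio was 2.81 to 4.01 for the Gh probe sets and 2.23 for Prl. Without wild type 1, the log2 range of Pomc over the brains was 0.90 in place of 5.81, while that of Gh was 5.51 in place of 6.99 and that of Prl 6.10 in place of 7.25.

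Cga, which encodes the alpha subunit shared by thyroid-stimulating, luteinising and follicle-stimulating hormone, lay between these patterns. Its probe set 1418549_at measured 3.6, 3.0 and 99.0 in heterozygous brains 1 to 3, and 889.5, 5.0 and 5.0 in wild-type brains 1 to 3. Heterozygous 3 was second, as for Gh and Prl, but wild type 1 was 8.99 times as bright. The other 4 brains were all below the dim limit and covered a log2 range of 0.14. Whether Cga shared the intermediate level of Gh and Prl in wild types 2 and 3 cannot be told at such dim values.

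The beta subunits, each of which pairs with the alpha subunit to give a hormone its identity, were dim or near the dim limit. Tshb of thyrotrophs measured 12.0, 14.8 and 24.1 in heterozygous and 40.5, 11.3 and 22.4 in wild-type brains 1 to 3. Lhb, the luteinising hormone subunit of gonadotrophs, measured 13.6, 22.8 and 30.2, and 50.7, 6.2 and 21.7. Both passed the dim limit narrowly. Their mean intensities were 20.8 and 24.2, though the limit applies to the mean on the log2 scale. Both were highest in wild type 1 and second in heterozygous 3, but heterozygous 3 stood only 0.06 above the next brain for Tshb and 0.25 for Lhb. Fshb, the follicle-stimulating hormone subunit, measured 5.9, 5.1 and 5.7, and 35.6, 1.1 and 11.6, above the dim limit in wild type 1 alone and dim on average.

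The 2 regulators that were measured were dim on average. Ghrhr, the somatotroph receptor for growth hormone-releasing hormone, measured 13.8, 15.2 and 14.2 in heterozygous and 3.3, 10.7 and 3.7 in wild-type brains 1 to 3, below the dim limit in every brain. The Pitx1 probe sets differed in their order: 1449488_at was highest in heterozygous 1 at 20.7, and 1419514_at in wild type 3 at 17.6. At these levels neither probe set can show whether Ghrhr or Pitx1 varied with the hormones.

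Of the 10 tested probe sets, 10 had a log2 range of at least 1 over the brains, against 6.33% of all 27022 tested probe sets. For 8 of them, those of Gh, Prl, Pomc and Cga, the range was at least 4, where the share of all tested probe sets was 0.037%. These 8 were the widest of all tested probe sets, from 5.57 to 8.19, where the highest value belongs to the Gh probe set 1437522_x_at, at 5.5 in heterozygous 2, and the next, a probe set of Rpgrip1 highest in heterozygous 1, reached 4.41. All 10 were highest on wild type 1, as were 16.8% of all tested probe sets. By the brightest probe set, 6 genes were highest on wild type 1 and second on heterozygous 3, an order that 3.29% of tested probe sets showed. Because the genes were chosen for this variation, these counts describe the choice. Cga, Tshb and Lhb passed the dim limit only with wild type 1 among the arrays.

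**Figure D2:**
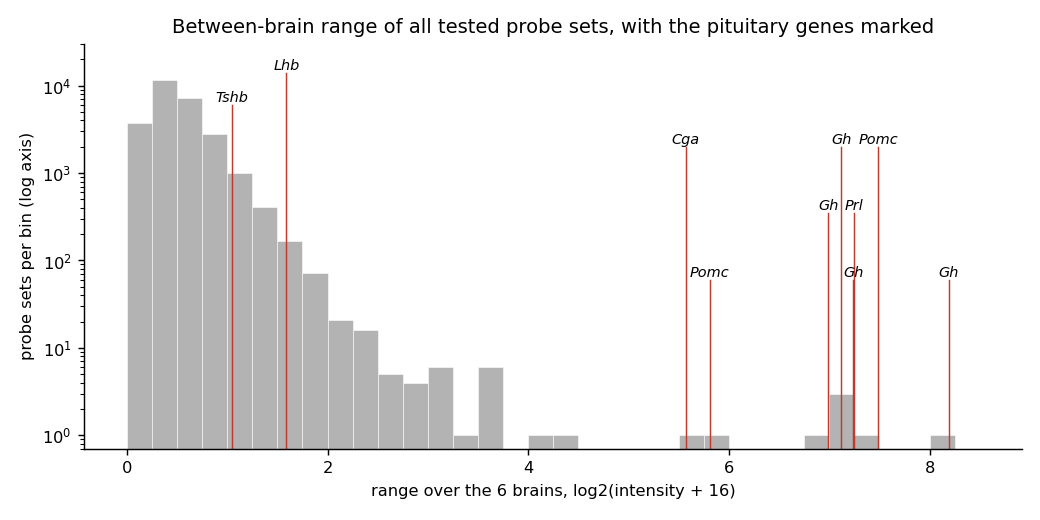
Number of tested probe sets (log axis) by the range of log2(intensity + 16) over the 6 brains, with the 10 tested pituitary probe sets marked by red lines, whose height carries no value. The probe sets of Gh, Prl, Pomc and Cga lie from 5.57 to 8.19, and those of Tshb and Lhb at 1.05 and 1.59.

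Set against the median of the other 4 brains, wild type 1 was higher by 6.18 for Gh, 5.38 for Prl and 5.39 for Pomc on the log2 scale. Heterozygous 3 was higher by 4.70 for Gh, 4.23 for Prl and 0.48 for Pomc. For Cga the other 4 brains were below the dim limit, so only a bound can be given: with those brains raised to the limit, wild type 1 was higher by at least 4.72 and heterozygous 3 by at least 1.74. The measured differences of Cga, 5.48 and 2.51, depend on the pseudocount. Somatotroph and lactotroph hormones were thus high in both brains, the shared alpha subunit unequally so, and the hormone precursor of corticotrophs and melanotrophs in wild type 1 alone. For Pomc the other 4 brains themselves covered 0.88, more than the distance of heterozygous 3 from their median. For Tshb the distances were 0.95 and 0.45, and for Lhb 1.0 and 0.47, in wild type 1 and heterozygous 3.

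**Figure D3:**
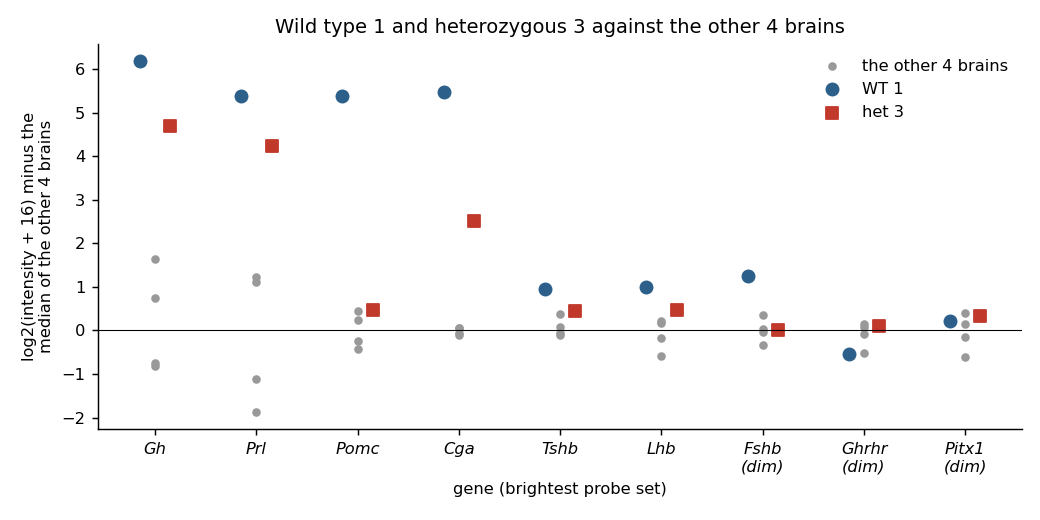
Log2(intensity + 16) of wild type 1 (blue circles) and heterozygous 3 (red squares) minus the median of the other 4 brains (grey points), for the brightest probe set of each gene. Pomc is the bright gene for which heterozygous 3, at 0.48, falls close to the other 4 brains.

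The genes nearest to each hormone were found by root mean square distance between median-centred log2 profiles over the 6 brains, among 13024 genes. Prl was nearest to Gh and Gh to Prl, at 0.65, and Cga and Pomc were nearest to each other, at 1.02. Cga lay at 1.19 from Gh. Since most Cga values are below the dim limit, its distances depend on the pseudocount, and no other pseudocount was tried for them. Which gene is nearest to Cga is therefore not settled. For Gh, Prl, Cga and Pomc the 3 nearest genes were the other 3 of this set. The next for Gh were Slc25a13 at 2.40 and Fv1 at 2.40, and for Prl the same genes at 2.25 and 2.26, but they covered log2 ranges of only 1.34 and 1.71. For Pomc they were Smco3 at 1.70 and Tmem121 at 1.71, and for Cga Tmem121 at 2.08 and Esr1 at 2.10. For Tshb and Lhb, which lie near the dim limit, the nearest genes were Tmem121, Gm11681, Mkx, Akr1c14 and Lurap1 for Tshb, at distances of 0.13 to 0.15, and Zfp386, Tshb, Gm11681, Arap1 and Prrg1 for Lhb, at 0.11 to 0.25, genes with log2 ranges of 0.73 to 1.42. With 6 brains, and 1 or 2 of them far from the rest, these distances are set mostly by those brains.

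Other genes of the pituitary covered narrower ranges. Of 15 further transcription factors of the anterior lobe, 5 were tested. Their median log2 range was 0.43, as against 0.41 for all genes, and 1 exceeded a range of 1: Lhx3, an early lineage factor, at 26.7 in wild type 1 but 3.7 in wild type 2 and 17.4 to 25.0 elsewhere. In this list 3 of the 5 tested genes were highest in wild type 1, against 16.8% of all tested probe sets: Lhx3, Eya1 at 93.1 against 65.2 to 79.3 in the other brains, and Foxl2 at 66.1 against 50.1 to 65.1. Heterozygous 3 was second for none of them. Pax7, the selector gene of melanotrophs, was dim, yet both its probe sets were highest in wild type 1, at 25.2 and 22.6, with the other brains at 12.0 or less. Six6, a factor of the hypothalamus and pituitary, was likewise at 22.2 in wild type 1 and 11.8 or less elsewhere. Other genes of the anterior lobe and melanotroph lists were low in wild type 1. Mc5r, a dim gene of the melanotroph list, was lowest there, at 3.5 against 9.6 to 19.9 elsewhere. Lhx4, also dim, was lowest there at its brightest probe set, at 7.3 against 8.4 to 17.7. Gabrg3 of the melanotroph list, at its brightest probe set, was at 16.4 there and at 36.9 in heterozygous 3. Tbx19, which directs Pomc transcription in corticotrophs and melanotrophs, was dim at both probe sets. It was highest in wild type 2 at 1422085_at, with 30.2, and at 1422086_at it was highest in wild type 1 and second in heterozygous 3, with 14.3 and 12.2, both below the dim limit. Other dim list genes of the pituitary and hypothalamus with a range of at least 1 were Nr5a1 and Nr0b1, highest in heterozygous 1, Sstr5 and Nr5a2 in heterozygous 2, and Fgf10 and Ghrh in wild type 2.

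Among 5 tested receptors through which the pituitary is regulated, Esr1, the oestrogen receptor gene, had the order of Gh at its top: 107.4 in wild type 1, 89.7 in heterozygous 3 and 52.7 to 61.5 in the other 4 brains. The dopamine receptor gene Drd2, abundant in striatum as well as in lactotrophs and melanotrophs, ranged from 94.6 to 133.0 with wild type 1 at 131.2. Crhr1 of the same list was lowest in wild type 1 at its brightest probe set, at 137.0 against 139.5 to 181.9 elsewhere. Its other probe set, 1427782_a_at, was lowest in wild type 2, at 76.6. Among 8 tested secreted or feedback genes, the neuropeptide gene Gal was at 156.2 in wild type 1 and 75.5 to 114.2 elsewhere. Nts and Nmb of that list were lowest in wild type 1, at 231.9 against 248.8 to 333.8 and at 111.1 against 117.5 to 144.8. Dlk1, a membrane protein abundant in somatotrophs, was flat at its brightest probe set, but 1449939_s_at measured 215.6 in wild type 1, 99.8 in heterozygous 3 and 57.4 to 71.2 in the others. That probe set was singled out after its values were seen. So were the values of Pax7, Mc5r, Lhx4, Gabrg3, Eya1, Foxl2, Esr1, Crhr1, Gal, Nts and Nmb. The same holds, below, for Rbfox3, Th, Hba-a1, Slc4a1, the keratin genes and the further probe sets of S100b, Sox9, Scn7a and Sostdc1.

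Secretory and prohormone-processing genes, which neurons also use, had a median log2 range of 0.30 over 9 genes. Chga and Chgb ranged from 559.0 to 788.3 and from 3158.2 to 3682.8. Pam, the peptide-amidating enzyme gene, ranged most (2.87), with 971.4 in heterozygous 2 and 119.2 in heterozygous 1. The 9 tested genes of pituitary stem and folliculostellate cells, some of which astrocytes also express, had a median range of 0.40. By the brightest probe set, 5 of these were highest in wild type 1, against 16.8% of all tested probe sets, and heterozygous 3 was second for none of them. They were S100b at 1762.5 against 1476.0 to 1697.4 in the other brains, Sox9 at 104.9 against 80.2 to 102.5, the keratin genes Krt18 at 51.7 against 36.2 to 46.6 and Krt8 at 49.6 against 22.7 to 49.2, and Cyp2f2. The first 4 of these lay within 0.23 of the median of the other 4 brains on the log2 scale. Further tested probe sets of S100b and Sox9 differed. S100b at 1419383_at was at 1047.4 in wild type 1 and highest in heterozygous 2, at 1243.9. Sox9 at 1424950_at was highest in wild type 1, at 99.2, with heterozygous 3 second, at 98.9. Cyp2f2 had a range of 1.29, with 53.4 in wild type 1, 37.9 in heterozygous 1 and 12.4 to 21.6 in the rest. Of the other pituitary lists, wild type 1 was highest for 1 of 5 receptors, 2 of 9 secretory genes, 1 of 8 secreted or feedback genes, 1 of 7 posterior lobe genes and 0 of 3 melanotroph genes. The 3 tested melanotroph genes were Rbfox3, Drd2 and Gabrg3, and Rbfox3 measured 3043.7 to 3778.9 over all brains. Their counts cannot show how much intermediate lobe a brain carried.

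By the brightest probe set, genes of the posterior lobe and the adjoining hypothalamus differed little in the brains with the most hormone signal. Wild type 1 lay within 0.49 and heterozygous 3 within 0.66 of the median of the other 4 brains for every tested gene of these lists. Probe sets of Scn7a differed: 1436044_at, the brightest, was lowest in heterozygous 3, at 16.5 against 25.5 to 41.2 elsewhere. At 1436043_at wild type 1 was highest, at 39.3, and heterozygous 3 second, at 35.4, against 19.6 to 32.5 in the others. Avp and Oxt, whose neurons send their axons to the posterior lobe, measured 174.3 to 264.5 and 163.3 to 255.9, and neither was highest in wild type 1 or heterozygous 3. The pituicyte gene Rax was at 6.1 or less in all brains. With Avp and Oxt present in every brain and Rax dim, these values cannot show how much posterior lobe a brain carried. Npy and Cartpt, expressed with or near Pomc in the arcuate nucleus, measured 1166.6 and 302.0 in wild type 1, within ranges of 1166.6 to 1338.3 and 292.9 to 388.8. None of the 4 tested arcuate genes was highest in wild type 1, and their list's summed intensity was lowest there, at 1653.1 against 1674.5 to 1940.5 in the other brains. Npy gave 1166.6 of that sum in wild type 1. Ghrh and Nr5a2 of this list were dim, and no probe set was matched for Agrp and Kiss1. These values therefore say little about how much arcuate tissue a brain carried. Of the 7 tested genes in the list of hypothalamic releasing factors, 1 had the order of the hormones at its top: Th, the rate-limiting enzyme gene of dopamine synthesis, at 201.6 in wild type 1 and 198.1 in heterozygous 3, against 143.2 to 192.8 in the others.

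**Figure D4:**
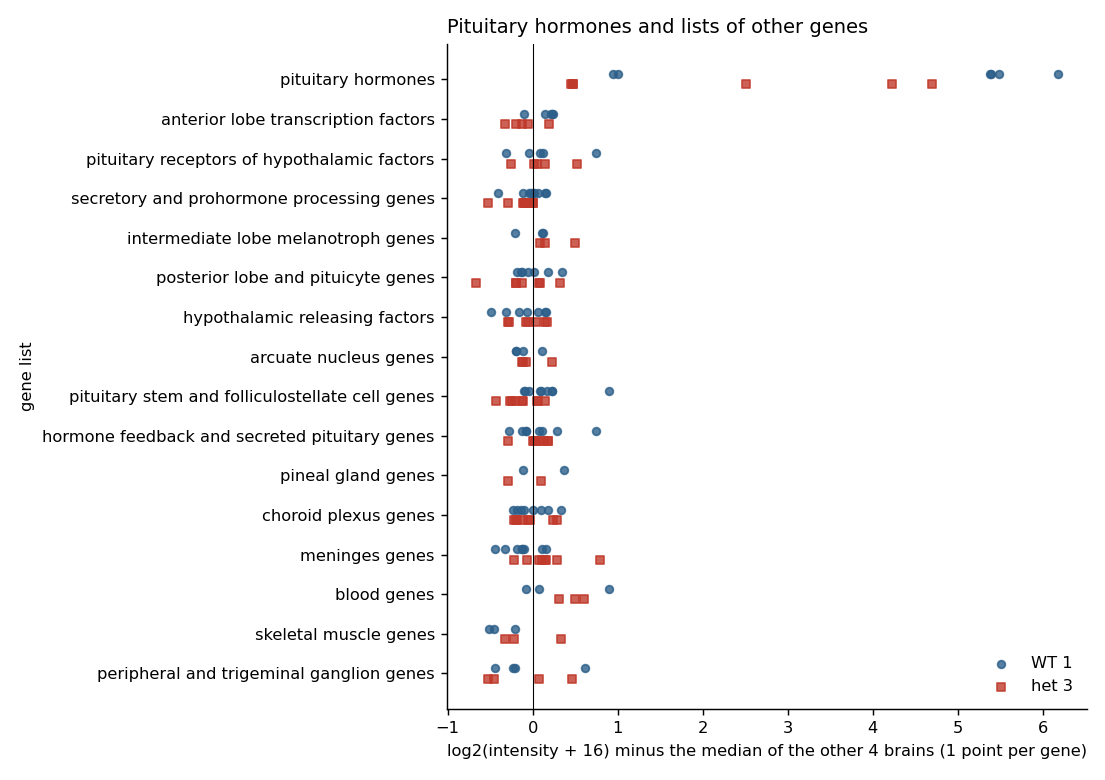
Log2(intensity + 16) of wild type 1 (blue circles) and heterozygous 3 (red squares) minus the median of the other 4 brains, 1 point per tested gene, for the pituitary hormones and 15 lists of other genes. The hormones reach 6.18, and the other lists stay within about 1 of 0 in both brains.

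Lists of other tissues that a brain dissection can carry were compared in the same way. The 8 tested choroid plexus genes had a median range of 0.42 and the 8 meningeal genes 0.60, where Col1a1 was highest in heterozygous 3 and wild type 2, at 120.4 and 111.8. Of 2 tested pineal genes, Sag was highest in wild type 2, at 97.2, with 33.8 or less elsewhere. Among the dim pineal genes with a range of at least 1, Tph1, Aanat and Pde6b were also highest in wild type 2, at 34.3, 32.8 and 30.4, and Gnat2 and Gngt1 in heterozygous 1. In the blood list, erythroid Alas2 was highest in wild type 1, at 63.6 against 23.2 to 36.9. Hba-a1, a dim globin gene, was at 16.2 in wild type 1, 12.3 in heterozygous 3 and 0.4 to 5.0 in the others. Slc4a1, also dim, was highest in heterozygous 3 at its brightest probe set, at 17.6, with heterozygous 1 at 15.5. The neutrophil genes S100a8 and S100a9 were highest in heterozygous 2 and wild type 2, at 87.6 and 42.0. The summed blood list was 150.2 in wild type 1 and 167.3 in heterozygous 3, against 74.0 to 151.2 in the others. Muscle Ckm and Mylpf and the sensory ganglion gene Isl2 were highest in heterozygous 1, at 36.9, 39.2 and 57.8, and Prph, also in ganglia, was highest there too, at 58.2. By the brightest probe set, 1 tested gene each of the meningeal and blood lists was highest in wild type 1 and second in heterozygous 3. In the choroid plexus, pineal, muscle and ganglion lists none was. A further tested probe set of the choroid plexus gene Sostdc1, 1460250_at, had this order, at 65.1 and 62.7 against 49.4 to 62.0 in the others. How much pituitary tissue each brain carried was not recorded in the labels, and its part in these differences was not tested.

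Between genotypes, the hormone genes were lower in heterozygous brains on average, with large errors. The log2 difference, heterozygous minus wild type, was -1.81 (SE 1.50) for Gh, -2.16 (SE 1.44) for Prl, -2.09 (SE 1.03) for Pomc and -1.07 (SE 1.22) for Cga. Tshb lay at -0.26 (SE 0.27) and Lhb at -0.02 (SE 0.35). For each of these genes the genotypes overlapped, since heterozygous 3 exceeded at least 1 wild-type brain. Limma called 0 of the 10 probe sets, where it called 0.0148% of all tested probe sets, and 1 of the 10, the second Pomc probe set, had an unadjusted p below 0.05, as did 4.83% of all. The contrast uses the values by which the genes were chosen, so nothing is read from these counts. Without wild type 1, the difference was -0.14 (SE 1.29) for Gh, -0.76 (SE 1.34) for Prl and -0.41 (SE 0.25) for Pomc. Without heterozygous 3 it was -3.63 (SE 1.21) for Gh, -4.06 (SE 1.02) for Prl and -2.37 (SE 1.21) for Pomc.

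Among the further pituitary genes limma made no genotype call. Of 69 listed, 45 were tested, 21 higher and 24 lower in heterozygous brains, with a median log2 difference of -0.052 against 0.008 for all tested probe sets. After Benjamini-Hochberg adjustment the lowest adjusted p was 0.956, and 0 of the 45 were called, against 0.0148% of all tested probe sets, a share at which no call among 45 would be usual. An unadjusted p below 0.05 was found for 0 of them, against 4.83% of all.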

How the data were processed

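Whole-brain RNA of 3 heterozygous periphilin knockout and 3 wild-type mice was labelled with an oligo(dT) primer, per the labels' protocols, and hybridised to 1 array per brain. The values are intensities deposited by the authors, 1 linear value per probe set. No source used here names the software that summarised the probes. On every array the central 96% of values averaged 150.0, which shows a common scaling, and array medians were 31.2 to 34.5. The number of arrays limits the precision. P-values set the difference between genotypes against the spread of these 6 animals within their genotypes, which eBayes moderates across probe sets.

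Of 45101 probe sets, 64 manufacturer controls were set aside. The platform annotation gave 34945 probe sets 1 gene and 932 several, and the rest have no name here. For 34741 of the probe sets with 1 gene, the symbol was replaced by that of the same Entrez identifier in a RefSeq table of GRCm38.p6. Intensities were taken as log2(value + 16), and 18015 probe sets at or below the 40th percentile of the mean were removed as dim, leaving 27022. The genotype test was that of limma (version 3.58.1, under R 4.3.3), with lmFit and trended eBayes, two-sided. P-values were adjusted by Benjamini-Hochberg across the 27022, and 0.05 was the threshold. The steps were tested on simulated data.

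A gene was represented by its brightest probe set. Named genes were every probe set of the members, the 5 nearest genes of each member with a log2 range of at least 1, list genes with such a range, and at most 4 other genes of each list. Gabrg3, Rbfox3 and Lhx4 were added beyond that limit. The lists covered further pituitary genes, hypothalamus and arcuate nucleus, pineal gland, choroid plexus, meninges, blood, skeletal muscle and peripheral ganglia. Members and lists were chosen with earlier results of these data known. Alternatives were other normalizations, pseudocounts, dim filters, variance models, array weights, a replicate block, a looser threshold and leaving out arrays. Promoter sequences came from RefSeq.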

Additional observations from a re-analysis of the deposited data

How the results depend on the processing

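Limma called 0 of the pituitary probe sets under each of its alternatives with a planned setting, and 0 of the further pituitary genes under those and without wild type 1 and heterozygous 3. Cga, Tshb and Lhb were removed as dim without wild type 1 and with the dim filter at the 60th percentile, so they could not be called there. The number of tested pituitary genes with a log2 range of at least 1 over the brains, 6, was 4 to 6 with single arrays left out, 4 with a pseudocount of 64 and 2 without wild type 1 and heterozygous 3, an alternative added after the data had been seen, because these arrays held the highest Gh and Prl. Calls over all probe sets numbered 4, and 1 without the dim filter, 1 without the eBayes trend and 1 to 14 with single arrays left out; the cause was not tested. A replicate block on the numbers II and III of the titles, which leaves wild type 1 and the unnumbered heterozygous 1 out of the contrast by construction, gave 44 calls. Under it the log2 differences turned to 0.75 for Gh, 0.01 for Prl, 1.16 for Cga, 0.12 for Tshb and 0.55 for Lhb. With the unnumbered title taken as I, the replicate block gave 5 calls. Deviations of same-numbered brains from their group means correlated at 0.08, 0.20 and -0.02, and 1 of 3 heterozygous brains correlated best with its own number. With so few brains, these values cannot show whether same-numbered samples share more than a number. The Lhb difference, -0.02, turned to 0.12 with a pseudocount of 1, and the cause was not tested. With single arrays other than wild type 1 left out it ran from -0.42 to 0.15. Without wild type 1, Lhb was removed as dim and has no value. The log2 range of Cga, 5.57, was 7.79 with a pseudocount of 1 and 3.83 with 64, since 4 of its values are dim. For Tshb, Lhb, Fshb, Ghrhr and Pitx1 the order of the brains is limited by signals near or below the dim limit.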
